A study of Sus scrofa with 20 samples.

Results

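The mesenchyme around the embryonic gut tube, which makes the muscle coat, fibroblasts and other support cells of the foregut and of its outgrowths such as liver, gallbladder and pancreas, is marked by a small set of transcription factors. The levels of 10 of these genes, FOXF1, FOXF2, FOXL1, HAND1, HAND2, BARX1, ISL1, TCF21, NKX2-3 and TBX2, are described here in sorted cells of pig gallbladder and liver. They were chosen by name with differences between gallbladder and liver cells of these same libraries already known, so their gallbladder to liver differences are given as a description, without a test. All 10 names had a row among the 25764 genes of the table.

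RNA was measured in 20 poly(A) libraries of pig (Sus scrofa) cells in 6 groups. Porcine biliary tree stem cells (pBTSCs), labelled as gallbladder cells, gave 5 libraries. Sorted liver cells gave 15, namely 4 of CD45-/EpCAM+ cells (epithelial surface marker present, leukocyte marker absent), 2 of CD45-/EpCAM- cells, 5 of CD45+ cells (leukocyte marker), 2 of CD31+ cells and 2 of CD146+ cells (both endothelial surface markers). The labels give no treatment, age, sex or animal for any library. The study's methods describe newborn piglets, in part of an H2B-GFP line and in part wild type, and a pBTSC preparation from gallbladder, cystic duct and common duct. They also describe a short culture of the selected stem cells into organoids. These held early mesenchymal cells beside the stem cells, named as angioblasts and as stellate and endothelial precursors. Each library is a bulk preparation enriched by antibodies, so its RNA is that of a mixture, and fewer cells of a type cannot be told apart from less RNA per cell. Libraries are named by the numbers of their labels (S2 to S23), and nothing in the labels ties a liver library to a pBTSC library.

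In the embryo, Hedgehog ligands from the gut epithelium act on the mesenchyme, where FOXF1, FOXF2 and FOXL1 are induced and BMP and Wnt signals are then returned to the epithelium. HAND1 and HAND2 are basic helix-loop-helix factors of lateral plate mesoderm. BARX1, ISL1 and NKX2-3 are homeobox factors with regional roles, in the stomach wall, the pyloric region and heart, and the midgut and spleen respectively. TCF21 marks fibroblast and stellate cell precursors, and TBX2 is a T-box repressor of many mesenchymal tissues.

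Values are normalized counts, which the authors' software scaled between libraries, and they were compared for a gene between libraries, never between genes, because no gene lengths were used. By the size of the smallest steps in each library, 17 libraries held 21200000 to 77800000 reads and 3 held fewer than 2000000, namely S13 (CD45-/EpCAM+), S15 (pBTSC) and S22 (CD146+). A value at or under 3 reads is called here at or under the floor. This floor was 0.680 to 4.28 normalized counts in the 17 deeper libraries, and 77.1, 37.7 and 156 in S13, S15 and S22, in which low genes cannot be read. Floors cover counting error only. The defining markers of the sorts did not follow the labels throughout. PTPRC, which encodes CD45, had a median of 1227 in the CD45+ libraries against 1912 in the CD45-/EpCAM+ and 2084 in the CD45-/EpCAM- libraries, and EPCAM was detected in all 20 libraries, from 491 to 2232.

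For 6 of the 10 factors, each of the 5 pBTSC libraries exceeded each of the 15 from liver. These were FOXF1, FOXF2, FOXL1, HAND1, HAND2 and NKX2-3, and 11.9% of the 15576 genes tested showed this pattern. With the 17 deeper libraries alone it was the same 6 factors, against 16.2% of genes. TCF21 lay above all liver libraries in 4 of 5 pBTSC libraries, and TBX2, BARX1 and ISL1 in 3 of 5. Because the list was chosen with this direction known, the count is a description. Liver levels separated the 10 factors into 3 patterns. FOXF1, HAND2, TCF21 and TBX2 were read in quantity in every sort, FOXL1 and NKX2-3 were low in liver, and FOXF2, HAND1, BARX1 and ISL1 were at or near the floor in nearly all liver libraries.

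**Figure D1:**
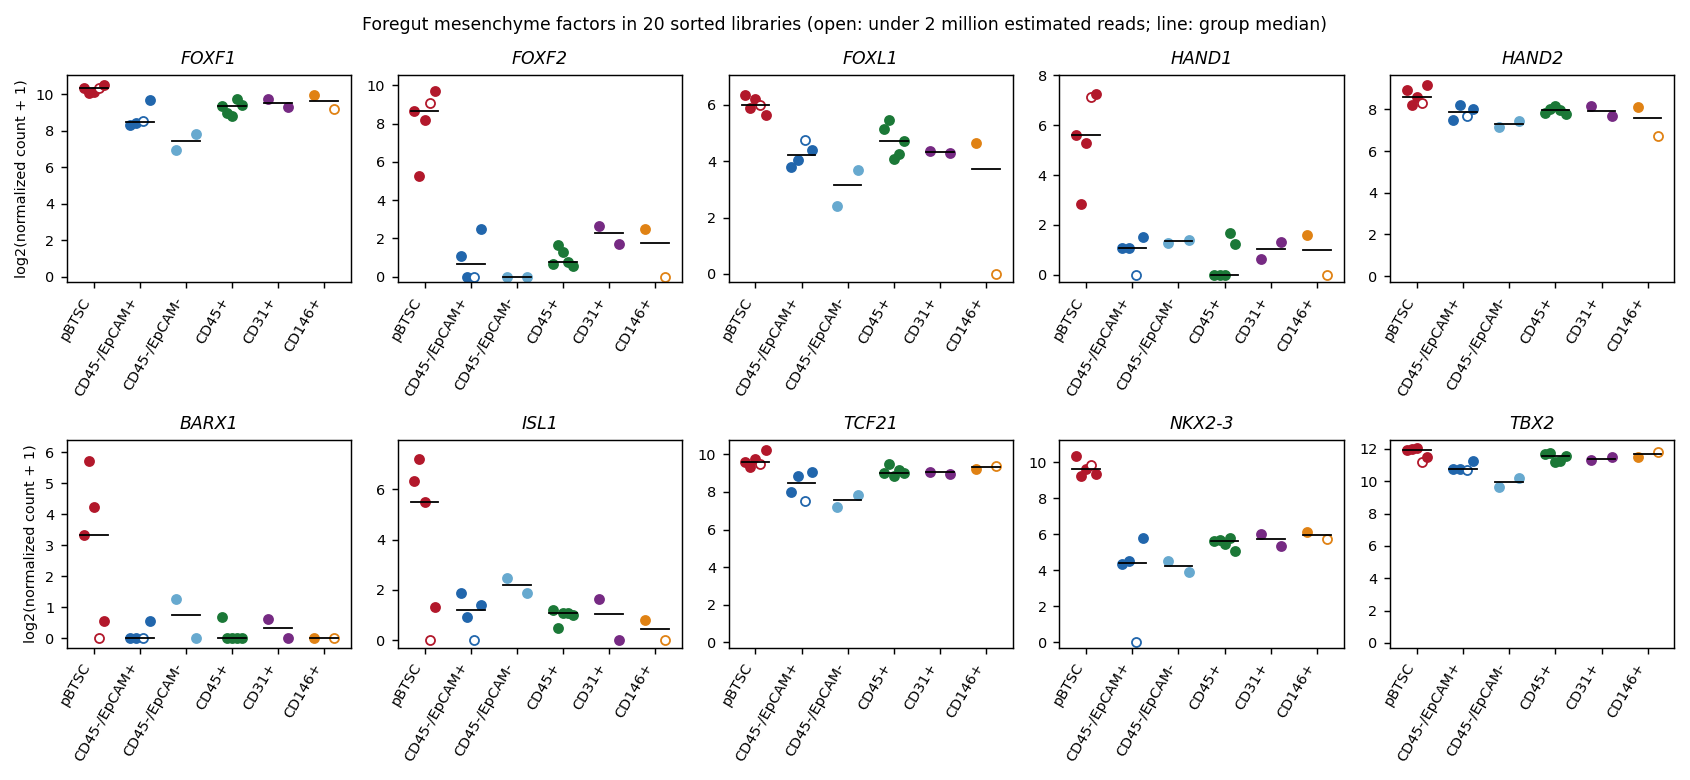
Level of each of the 10 factors, as log2(normalized count + 1) on the vertical axis, in 20 libraries by sort, 1 point per library with open points for the 3 libraries under 2000000 estimated reads and a line at the median of each group. FOXF2, HAND1 and NKX2-3 stand apart from liver in all 5 pBTSC libraries, BARX1 and ISL1 in 3 of them, and TBX2 overlaps with liver.

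FOXF1, a forkhead factor required for gut smooth muscle and for liver and lung mesenchyme, was read at 1299.5, 1047, 1091, 1266 and 1440.2 normalized counts in pBTSC libraries S2, S7, S11, S15 and S20. Liver libraries lay between 124 (S5, CD45-/EpCAM-) and 992 (S17, CD146+). The groups did not overlap, but the lowest pBTSC library exceeded the highest liver library by little. The group means were 1229 ± 160.4 (SD, n = 5) in pBTSCs, 788 ± 289 (n = 2) in CD146+, 742 ± 172 (n = 2) in CD31+, 618 ± 156 (n = 5) in CD45+, 457 ± 235 (n = 4) in CD45-/EpCAM+ and 173 ± 69.6 (n = 2) in CD45-/EpCAM- cells. Among liver sorts, only CD45-/EpCAM- cells had no library in the range of any other sort. The log2 difference of pBTSCs from CD45-/EpCAM+ cells, on the log2(normalized count + 1) scale used for every difference here, was 1.53 (SE 0.28), from CD45-/EpCAM- cells 2.87 (SE 0.34) and from CD146+ cells 0.68 (SE 0.34). The last fell to 0.29 without the libraries under 2000000 reads, since S22 was the lower of the 2 CD146+ libraries.

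FOXF2, the paralog of FOXF1, gave the sharpest contrast between tissues and also one of the widest spreads among pBTSCs. It was read at 404, 37.7, 289.8, 527 and 816 in S2, S7, S11, S15 and S20. In liver 12 of 15 libraries were at or under the floor, 5 of them at 0, and the highest, S16 (CD31+), had 5.37. The 3 liver libraries above the floor were S16, S17 and S19, 1 each of CD31+, CD146+ and CD45-/EpCAM+ cells. The median of the 4 deeper pBTSC libraries, 347, was 64.6 times the highest liver value. The log2 difference from CD45-/EpCAM+ cells was 7.27 (SE 0.79). With a pseudocount of 10 in place of 1 it was 4.75, because a fitted difference against values near 0 depends on the pseudocount.

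FOXL1, a forkhead factor of subepithelial fibroblasts of the gut, was read at 80.4, 57.6, 72.9, 62.9 and 49.0 in S2, S7, S11, S15 and S20, the tightest low gene of the list. Liver libraries ran from 0 in S22, whose floor lies above every pBTSC value, to 43.0 in S8 (CD45+), with a median of 18.3. The log2 difference was 1.78 (SE 0.65) from CD45-/EpCAM+ cells and 1.29 (SE 0.62) from CD45+ cells. From CD146+ cells it was 3.69 (SE 0.81), but 1.37 without the libraries under 2000000 reads.

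FOXF1 and FOXL1 are near neighbours in the pig genome. In the RefSeq annotation of the assembly Sscrofa11.1 the order is FOXL1, MTHFSD, FOXC2, FOXF1, and FOXF2 lies between FOXQ1 and FOXC1. Coordinates are not given because the build behind the table is not given in the sources used here. FOXC1 and FOXC2, forkhead factors of cranial and vascular mesenchyme, were not among the 10 but were fitted with limma over all genes. They too were listed with gallbladder to liver results of these libraries known, so their limma values are a description. FOXC2 was 398 ± 132 (SD, n = 5) in pBTSCs and 126 ± 58.1 (n = 15) in liver, and FOXC1 646 ± 229 and 182 ± 76.8. Against CD45-/EpCAM+ cells the log2 difference was 1.93 (SE 0.37, limma adjusted p = 0.00059) for FOXC2 and 2.09 (SE 0.31, limma adjusted p = 4.6e-05) for FOXC1. Within pBTSCs the neighbours did not share an order of libraries, since FOXC1 and FOXC2 were highest in S7 (959 and 571) and lowest in S20 (322 and 215), while FOXF1 and FOXF2 were lowest in S7 and highest in S20.

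HAND2, needed for smooth muscle and enteric neurons of the gut, was present in all sorts. It was read at 479.8, 297, 386, 315 and 565 in S2, S7, S11, S15 and S20, and at 104 to 290.4 in liver. The groups did not overlap, but S7 (297) and the highest liver library, S9 (290.4, CD45-/EpCAM+), nearly met. The log2 difference from CD45-/EpCAM+ cells was 0.79 (SE 0.26), and that from CD45+ cells 0.70 (SE 0.25).

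HAND1, its paralog, was read at 47.0, 6.20, 37.5, 138 and 152 in S2, S7, S11, S15 and S20. In liver no library exceeded 2.16, 14 of 15 were at or under the floor and 5 were at 0. The deeper pBTSC libraries had a median of 42.2, 9.87 times the highest floor of a deeper liver library. The log2 difference from CD45-/EpCAM+ cells was 4.69 (SE 0.76), and 2.53 with a pseudocount of 10. Thus HAND2 was shared between gallbladder and liver cells at a graded level, whereas HAND1 was read above the floor in 5 of 5 pBTSC and 1 of 15 liver libraries.

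NKX2-3, a homeobox factor of gut muscle and of spleen stroma, was read at 1282, 608, 780.1, 904 and 651 in S2, S7, S11, S15 and S20. In liver it ran up to 68.1 (S17, CD146+). The CD45-/EpCAM- libraries had 21.4 and 13.9, the CD45-/EpCAM+ libraries 19.1, 21.4, 0 and 53.6 in S4, S9, S13 and S19, and the CD45+ libraries 32.9 to 55.4. The value of 0 is in S13, whose floor of 77.1 is above the liver values. The median of the deeper pBTSC libraries, 716, was 10.5 times the highest liver value. The log2 difference from CD45-/EpCAM+ cells was 6.03 (SE 0.76) with all libraries and 4.77 without the 3 shallow ones, and from CD45+ cells 4.14 (SE 0.71).

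BARX1 and ISL1 were the only members of the list at or under the floor in a pBTSC library. BARX1, a stomach mesenchyme factor, was read at 9.05, 51.5, 17.98, 0 and 0.481 in S2, S7, S11, S15 and S20, and ISL1 at 78.2, 146.3, 44.1, 0 and 1.51. S15 is shallow, and its floor of 37.7 lies above 2 of the 3 BARX1 values read in S2, S7 and S11 but below each of the ISL1 values. S20 was deep, with a floor of 1.44, and had BARX1 under it and ISL1 next to it. In liver BARX1 was at or under the floor in 15 of 15 libraries and at 0 in 11, and ISL1 had at most 4.49 (S5, CD45-/EpCAM-). The log2 differences from CD45-/EpCAM+ cells were 2.63 (SE 0.89) and 3.02 (SE 1.13). S2, S7 and S11 exceeded all liver libraries for both genes.

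TCF21 and TBX2 had the smallest ratios of the pBTSC to the liver median over all libraries, 1.52 and 1.62. TCF21 was read at 786, 647, 870.2, 728 and 1199 in S2, S7, S11, S15 and S20, and at 147 to 706 in liver, where S8 (CD45+, 706) exceeded S7. TBX2 was read at 3969, 4069, 4202, 2286 and 2935 in the same 5 libraries and at 791 to 3652 in liver. Their log2 differences were 1.33 (SE 0.27) and 0.87 (SE 0.20) from CD45-/EpCAM+ cells, 2.17 (SE 0.34) and 1.82 (SE 0.24) from CD45-/EpCAM- cells, but 0.38 (SE 0.34) and 0.06 (SE 0.24) from CD146+ cells. By group mean TBX2 ran in the order pBTSCs (3492 ± 841, SD, n = 5), CD146+ (3292 ± 510.1, n = 2), CD45+ (2913 ± 498, n = 5), CD31+ (2686 ± 254, n = 2), CD45-/EpCAM+ (1890.1 ± 379, n = 4) and CD45-/EpCAM- cells (982 ± 269.8, n = 2). The first 4 neighbours in this order overlapped in their ranges, and the CD45-/EpCAM- libraries lay below all others.

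Against each of the 5 liver sorts, 10 of 10 factors had a log2 difference above 0. The median of the 10 was 2.21 against CD45-/EpCAM+ cells, 2.52 against CD45-/EpCAM- cells and 1.96 against CD45+ cells, beside 0.08, 0.04 and 0.07 over all 15576 genes. These contrasts share the same 5 pBTSC libraries. When each library was rescaled to the same total, the median of all genes against CD45-/EpCAM+ cells rose by 0.30 to 0.39, and each of the 10 factors stayed above that median. Against CD146+ cells 9 of 10 did.

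The pBTSC libraries did not carry the 10 factors in fixed proportion. The highest library exceeded the lowest by 1.38 times for FOXF1, 1.64 times for FOXL1, 1.84 times for TBX2, 1.85 times for TCF21, 1.91 times for HAND2 and 2.11 times for NKX2-3, but by 21.6 times for FOXF2 and 24.6 times for HAND1. S7 was the lowest of the 5 for 6 factors, FOXF1, FOXF2, HAND1, HAND2, TCF21 and NKX2-3, and the highest for BARX1 and ISL1. Over all genes S7 was lowest for 23.5% and highest for 24.4%. S20 was the highest for FOXF1, FOXF2, HAND1, HAND2 and TCF21, and S20 was highest for 19.3% of all genes. FOXF2 and HAND1 followed the same order, S7, S11, S2, S15, S20, and were highest in S15 and S20. There BARX1 and ISL1 were lowest (at or under the floor for BARX1 in both and for ISL1 in S15). The RNA integrity number that the study lists for these samples rose in the order S7, S11, S2, S20, with none for S15. Its part in the spread was not tested.

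Other foregut genes varied beside them. NKX3-2, a stomach factor placed in the same embryonic region as BARX1, was read at 4.89, 18.3, 15.8, 0 and 2.41 in S2, S7, S11, S15 and S20, and NKX2-5, a factor of the pyloric sphincter, at 13.9 in S7, 1.82 in S2 and at or under the floor in S11, S15 and S20. The summed fibroblast markers (COL1A1, COL1A2, COL3A1, DCN, LUM, DPT and PDGFRA, 7 of 7 with a row) were 344302, 354580, 922470, 1631850 and 1642190 in S2, S7, S11, S15 and S20. The summed smooth muscle markers (6 of 8 with a row, with no row for ACTG2 and MYH11) were 117781, 186286, 122917, 93849 and 87364. The Schwann and enteric glia markers (4 of 5) were 15626, 13745, 11707, 4197 and 4748. Fibroblast markers were thus highest in S15 and S20, where FOXF2 and HAND1 were highest, and smooth muscle markers highest in S7, where BARX1 and ISL1 were highest. Their part in the spread of the 10 factors was not tested. S2, S7 and S11 are the libraries that the study's methods list as H2B-GFP piglets, and S15 and S20 those of wild-type piglets. The labels do not give the line, so no comparison of lines was made. Line and order of library number cannot be told apart. By the study's list, RNA integrity was lower in S2, S7 and S11 than in S20.

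**Figure D2:**
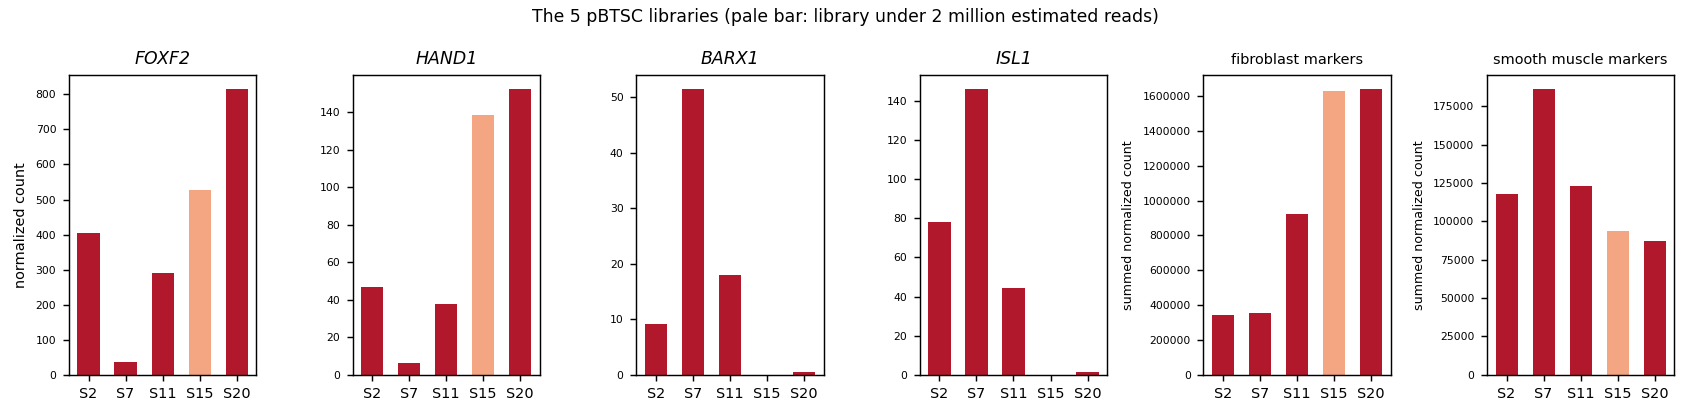
Normalized counts of FOXF2, HAND1, BARX1 and ISL1 and summed normalized counts of fibroblast and smooth muscle markers in the 5 pBTSC libraries, as bars from 0, the pale bar being the shallow library S15. FOXF2 and HAND1 are lowest in S7 (37.7 and 6.20) and BARX1 and ISL1 highest there (51.5 and 146.3), while fibroblast markers are highest in S15 and S20.

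Summed fibroblast and neuronal markers also separated gallbladder from liver, but smooth muscle, interstitial cell of Cajal and epithelial markers overlapped. Summed fibroblast markers had a range of 344302 to 1642190 in pBTSCs, against 41560 to 135651 in CD45-/EpCAM+, 27518 to 40694 in CD45-/EpCAM- and 60139.9 to 134415 in CD45+ cells. LUM, a collagen-binding proteoglycan, was 2514 to 22905 in pBTSCs and 32.5 to 247 in all liver libraries. Smooth muscle markers summed to 87364 to 186286 in pBTSCs, against 17838 to 51292 in CD45-/EpCAM+ and 26046 to 95649 in CD45+ cells. Neuronal markers (5 of 5 with a row) summed to 597 to 1455 in pBTSCs, against 25.7 to 89.8 in CD45-/EpCAM+ cells. Interstitial cell of Cajal markers (3 of 3) were 3201 to 4252 in pBTSCs and 2062 to 4469 in liver. Epithelial markers (5 of 6, with no row for KRT19) summed to 11333 to 26871 in pBTSCs and 14041 to 30124 in CD45-/EpCAM+ cells. The pBTSC libraries, labelled as stem cells, held RNA of fibroblast, muscle and nerve genes together with the 10 factors. By the study's methods, early mesenchymal cells were part of such preparations. The share of any of these cells in the levels of the 10 factors was not tested.

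Markers of hepatic stellate cells, the resident mesenchymal cells of liver, ran partly the other way. LRAT, the vitamin A storage enzyme that defines hepatic stellate cells, was 176 to 1323 in liver and 2.14 to 13.2 in pBTSCs, and COLEC11 was 1109 to 3442 against 38.3 to 249.8. The stellate list as a whole (7 of 7 with a row) did not separate the tissues, with sums of 17444 to 25670 in pBTSCs and 12379 to 20672 in CD45-/EpCAM+ cells, as it includes PDGFRB and DES, which other mural cells share. Of the mesothelial markers 4 of 5 had a row (none for MSLN). They summed to 78.9 to 232 in pBTSCs and 39.9 to 90.1 in liver, but went opposite ways. WT1 was 69.7 to 216 in pBTSCs and 0 to 29.4 in liver. UPK3B was 0 to 15.4 and 22.7 to 77.1 (log2 difference -2.88, SE 0.61, limma adjusted p = 0.0013 against CD45-/EpCAM+ cells). LRRN4, too low to test, was at 0 in 5 of 5 pBTSC libraries, but also in liver libraries S9, S13, S21 and S22. Leukocyte markers (6 of 6) summed to 4095 to 10061 in pBTSCs and 12559 to 38395 in liver, hepatocyte markers (5 of 5) to 25014 to 56995 and 670992 to 1950330, and endothelial markers (5 of 5) to 74294 to 97905 and 14609 to 86318. FOXF1, TCF21 and TBX2, read above the floor in all 20 libraries, were read both where LRAT was high and where it was near the floor.

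The liver sorts could be tested against each other, because the choice of the 10 factors rested on gallbladder against liver. FOXF2, HAND1, BARX1 and ISL1 reached 10 normalized counts, the limit for testing, only in pBTSCs, and lay at or near the floor in liver. They could hardly pass here or in the contrasts between liver sorts, so the lack of a call says nothing of them. In a limma F test for any difference among the 5 sorts, 3 of 10 factors passed at an adjusted p under 0.05, against 4.98% of all genes. They were TBX2 (adjusted p = 0.0104), FOXF1 (adjusted p = 0.0148) and TCF21 (adjusted p = 0.0296), and the other 7 had adjusted p-values from 0.21 to 0.998. None of the 3 passed when the fit held liver libraries alone (adjusted p = 0.053, 0.077 and 0.10) or when S5, 1 of the 2 CD45-/EpCAM- libraries, was left out (0.33, 0.38 and 0.40).

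Against CD45-/EpCAM+ cells, CD45-/EpCAM- cells were lower for FOXF1 by limma, with a log2 difference of -1.34 (SE 0.36, adjusted p = 0.0473). This was the only call (adjusted p under 0.05 and absolute log2 difference above 1) among the 10, beside 2.80% of all genes called in either direction. The 2 CD45-/EpCAM- libraries had 124 and 222, below the 315, 338, 366 and 807 of S4, S9, S13 and S19. TBX2 differed by -0.95 (SE 0.25, adjusted p = 0.0475), under the threshold of size, TCF21 by -0.84 (SE 0.35, adjusted p = 0.16) and HAND2 by -0.53 (SE 0.34, adjusted p = 0.38). The adjusted p of FOXF1 lay next to the threshold, and the call was lost without the filter on low values (0.056), with array weights (0.16), in a fit of these groups alone (0.36), without S19 (0.12) and without S5 (0.83). Without S13 or the 3 shallow libraries, FOXF1, TBX2 and TCF21 were all called. Without the 3 shallow libraries each lay next to a threshold, with limma adjusted p = 0.0458 for FOXF1 and 0.0487 for TCF21, and a log2 difference of -1.01 for TBX2. The shares of all genes called in these fits are not given here.

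CD45+, CD31+ and CD146+ cells gave 0 calls among the 10 factors against CD45-/EpCAM+ cells, as they did among all genes by limma, so the background was 0.00% in each of these 3 contrasts. At an unadjusted p under 0.05 there were 214, 506 and 2842 of the 15576 genes. So many genes passed for CD146+ cells that the factors named next are a description only. Of the 10 factors, NKX2-3, TBX2 and TCF21 were among them for CD45+ cells, FOXF1 for CD31+ cells, and FOXF1, FOXL1, NKX2-3, TBX2 and TCF21 for CD146+ cells. FOXL1 was lower in CD146+ cells (-1.91), where S22 read 0 under its floor, but higher without the shallow libraries (0.58). NKX2-3, at 0 under the floor in S13, fell without them from 2.28 to 1.25 for CD146+ and from 1.89 to 0.67 for CD45+ cells. In CD146+ cells TCF21 differed by 0.95 (SE 0.35), FOXF1 by 0.85 (SE 0.36) and TBX2 by 0.81 (SE 0.25), with limma adjusted p = 0.18, 0.22 and 0.16. These 4 contrasts share the CD45-/EpCAM+ libraries.

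Liver values also differed by the number in the label. FOXF1 was 124 to 643 in the 8 liver libraries numbered 3 to 14 and 584 to 992 in the 7 numbered 16 to 23. CD31+ and CD146+ cells were only in the later range and CD45-/EpCAM- cells only in the earlier, so sort and number cannot be told apart for them. Both ranges held CD45+ and CD45-/EpCAM+ cells. FOXF1 was 438 to 643 in 3 earlier and 673 and 837 in 2 later CD45+ libraries, and 315 to 366 in 3 earlier and 807 in the later CD45-/EpCAM+ library, S19. TBX2 was 1645 to 1732 in the earlier CD45-/EpCAM+ libraries and 2455 in S19, but 2369 to 3402 in the earlier and 2409 and 3042 in the later CD45+ libraries. Within the earlier range, every CD45+ library exceeded every CD45-/EpCAM+ library for FOXF1 and TBX2, and S19 lay inside the range of the later CD45+ libraries for both. For TCF21 the earlier ranges were 469.6 to 706 and 179.9 to 459, and S19 (543) again lay inside the later CD45+ range (517 to 572). With a term for the 2 ranges of numbers, the F test called 1 of 10 factors, TBX2.

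**Figure D3:**
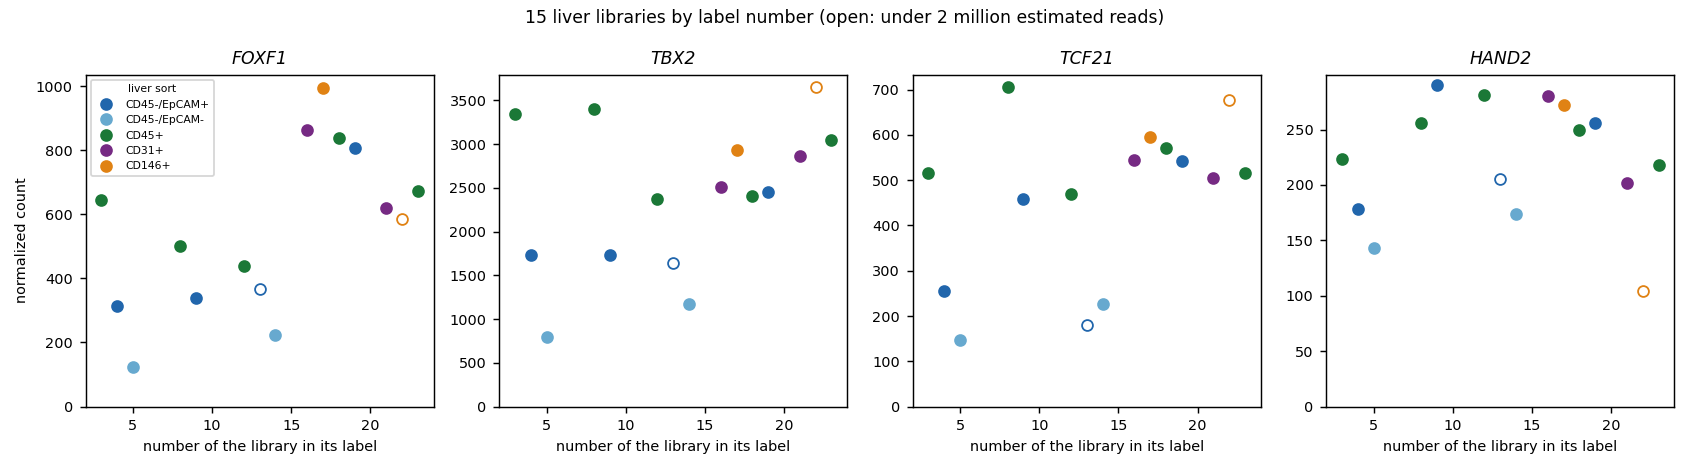
Normalized counts of FOXF1, TBX2, TCF21 and HAND2 in 15 liver libraries against the number in the label of each library, coloured by sort, with open points for the shallow libraries S13 and S22. The CD45-/EpCAM- libraries (S5 and S14) are lowest for FOXF1 and TBX2, and the CD45-/EpCAM+ library S19 lies with its neighbours in number.

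Other transcription factors of mesenchyme gave a wider view. Of 40 looked up, 39 had a row (none for PITX1) and 34 were tested. ALX4, NKX2-5, TBX4 and TLX1 were among those too low. Against CD45-/EpCAM+ liver cells limma called 17 of 34 higher in pBTSCs, beside 14.8% of all genes, and 2 lower, beside 10.3%. Against CD45-/EpCAM- cells it called 24 higher (all genes 20%) and 3 lower (16.6%), and against CD45+ cells 15 higher (11%) and 2 lower (9.54%). These genes were listed with gallbladder to liver results of these libraries already known, so the counts are not independent evidence of a direction. Their median log2 differences were 1.17, 2.29 and 0.85, beside 0.08, 0.04 and 0.07 over all genes. Without the 3 shallow libraries, where SIX2 was too low to be tested, the counts were 18 and 2, 26 and 3, and 15 and 2. Of all calls against CD45-/EpCAM+ cells 59.0% were higher in pBTSCs, and 72.6% when each library was rescaled to the same total, so shares of higher and lower calls depend on the scaling. Against CD45-/EpCAM- cells these shares were 54.7% and 75.4%, and against CD45+ cells 53.6% and 66.8%.

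Among the factors that rose most against CD45-/EpCAM+ cells were OSR2, an odd-skipped factor of limb and kidney mesenchyme (log2 difference 5.60, SE 0.68, limma adjusted p = 6.1e-06), TWIST2, a repressor of mesenchymal differentiation (4.08, SE 0.60), and NKX6-1 (3.94, SE 0.56). OSR2 was 159.9 to 454 in pBTSCs, 274.6 ± 111 (SD, n = 5) against 10.9 ± 11.9 (n = 15) in liver. NKX6-1 is better known from pancreas endocrine cells and motor neurons. It was 5.16 to 36.9 in pBTSCs, with S15 under the floor, and at or under the floor in 14 of 15 liver libraries. A gene so near the floor in liver can enter the test through pBTSCs alone, which favours a rise, so its call is a description. The call of NKX3-2, low in pBTSCs and lower still in liver, is a description for the same reason. OSR1, PRRX1, MSX2, SIX2, EBF1, TBX3, TBX18, NKX3-2, FOXD1, HEYL and WT1, a mesothelial and septum transversum factor, also rose. Without the shallow libraries OSR2 was 4.86 (SE 0.45), WT1 2.30 (SE 0.41) and NKX3-2 2.98 (SE 0.64), all still called. SIX2 was then too low to be tested, so its rise rests on the shallow libraries being kept. Several broadly expressed factors were not called. MEIS1, MEIS2, GATA6, HLX, ZEB1, ZEB2, SNAI2 and NR2F2 had limma adjusted p-values under 0.05 but log2 differences of 0.48 to 0.90, below the threshold of size, and TWIST1, MSX1, TBX5, TBX20 and HIC1 had adjusted p-values from 0.12 to 0.82. ZEB2 (1.05) and NR2F2 (1.01) were called without the shallow libraries.

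LHX2 and GATA4 fell in pBTSCs in all 3 contrasts. LHX2, a LIM homeobox factor of hepatic stellate cells, was 54.6 to 511 in liver, 273 ± 103 (SD, n = 15), with the lowest value, in S22, under the floor of that library, and 9.06 ± 9.96 (n = 5) in pBTSCs, where S15 was under the floor. Its log2 difference from CD45-/EpCAM+ cells was -5.27 (SE 0.57, limma adjusted p = 1.7e-06). GATA4, a factor of liver sinusoidal endothelium, stellate cells and foregut endoderm, was 621 to 1017 in pBTSCs, 788 ± 156 (n = 5), and 2422 ± 514 (n = 15) in liver, with a log2 difference of -1.61 (SE 0.21, limma adjusted p = 1.6e-05). NR2F1 was lower against CD45-/EpCAM- cells alone (-1.17, SE 0.26, adjusted p = 0.0013 by limma), and its difference between contrasts was not tested.

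**Figure D4:**
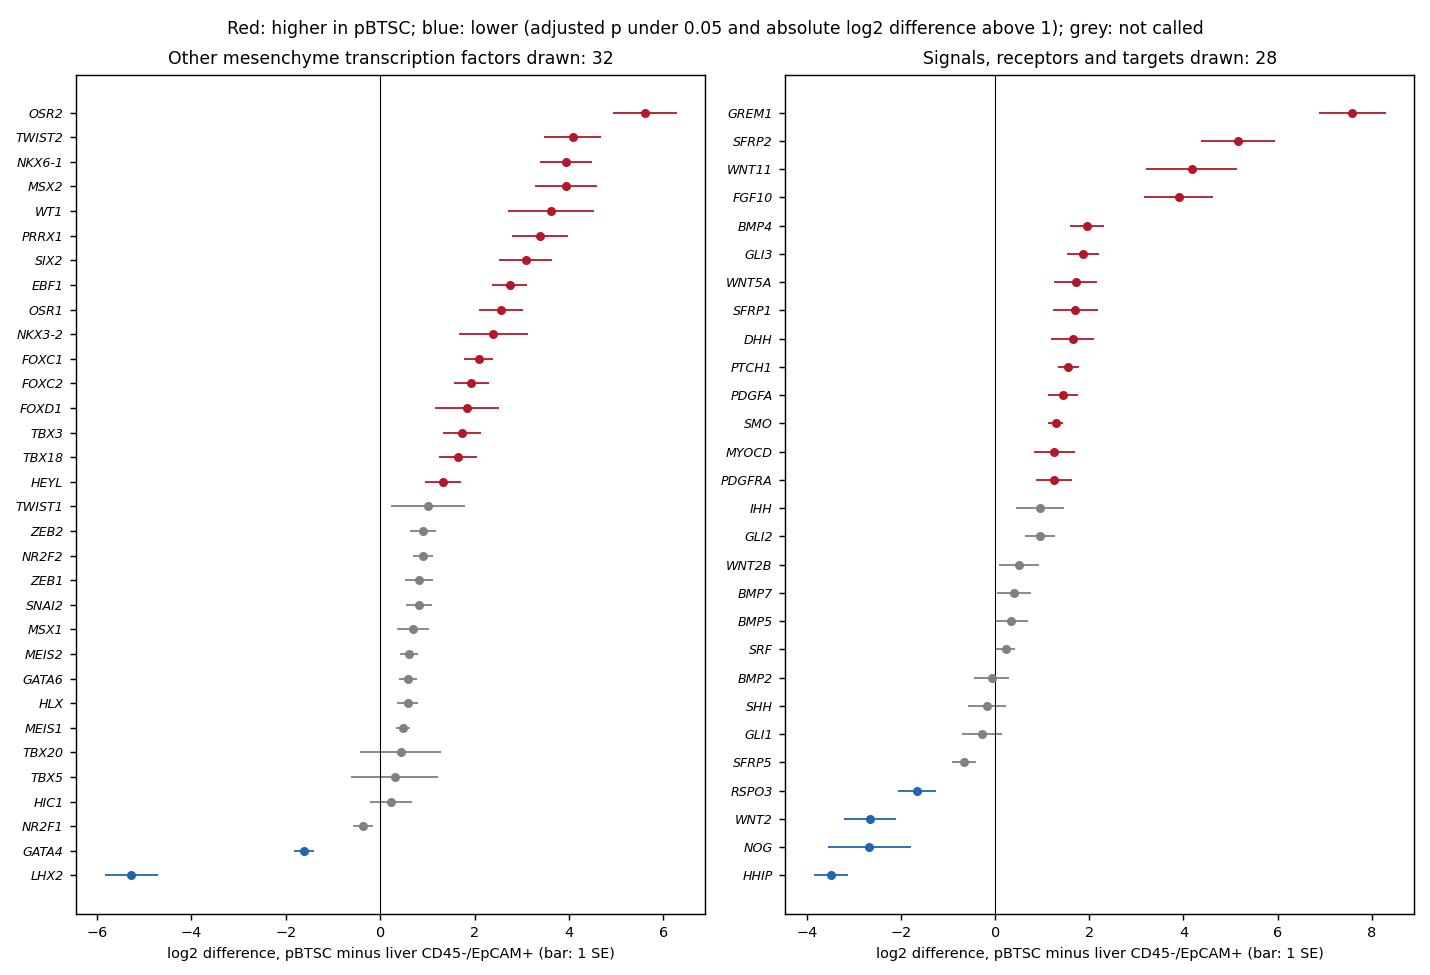
Log2 difference between pBTSCs and liver CD45-/EpCAM+ cells (horizontal axis, positive where higher in pBTSCs, bars 1 SE) for 32 other transcription factors and 28 signals, receptors and targets, coloured where called. Among the factors drawn 16 are higher and 2 lower, with LHX2 at -5.27, and among the signals drawn 14 are higher and 4 lower, with GREM1 at 7.59 and HHIP at -3.50.

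The signals that act on and from this mesenchyme were looked up as 32 genes, of which 30 had a row (none for WNT4 and FGF7) and 29 were tested, RSPO2 being too low. Against CD45-/EpCAM+, CD45-/EpCAM- and CD45+ cells limma called 15, 18 and 14 higher and 4, 3 and 4 lower in pBTSCs, with the same background shares. This list too was drawn up with earlier results of these libraries known, so its counts are a description. Without the shallow libraries the counts were 14, 20 and 14 higher and 3, 3 and 4 lower. The median log2 differences were 1.24, 2.14 and 0.995.

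The Hedgehog pathway, which induces the FOXF factors, was split. Of the ligands, SHH was 141 ± 78.9 (SD, n = 5) in pBTSCs and 155 ± 48.9 (n = 15) in liver and did not pass (log2 difference -0.18, SE 0.40, limma adjusted p = 0.75 against CD45-/EpCAM+ cells), IHH did not pass either (0.96, SE 0.51, adjusted p = 0.15), and DHH rose (1.65, SE 0.46, adjusted p = 0.0086). The receptor PTCH1 (1.55, SE 0.22) and the transducers SMO (1.28, SE 0.16) and GLI3 (1.85, SE 0.34) rose. PTCH1 was 1029 to 1411 in pBTSCs and 482 ± 158 (n = 15) in liver. The targets did not move together, since GLI1 did not pass (-0.28, SE 0.43, adjusted p = 0.64) and HHIP, which binds and holds Hedgehog ligand, fell by 3.50 on the log2 scale (SE 0.36, adjusted p = 1e-06). HHIP was 339 to 878 in pBTSCs and 2309 or more in every liver library.

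Of the BMP genes, BMP4, a mesenchymal target of FOXF1, rose by 1.95 on the log2 scale (SE 0.36, limma adjusted p = 0.00041), and the antagonist GREM1, which marks muscle and fibroblasts near the gut crypts, by 7.59 (SE 0.71, adjusted p = 3.6e-07). GREM1 was 339 to 692 in pBTSCs and 4.36 ± 4.24 (SD, n = 15) in liver. NOG, another BMP antagonist, fell by 2.68 (SE 0.88, adjusted p = 0.022). Without the shallow libraries the call of NOG was lost (-1.84, SE 0.94, limma adjusted p = 0.14). BMP2, BMP5 and BMP7 did not pass. Among Wnt genes, SFRP2 (5.16, SE 0.78), WNT11 (4.17, SE 0.97), WNT5A (1.71, SE 0.45) and SFRP1 (1.70, SE 0.48) rose, while WNT2 (-2.67, SE 0.55) and RSPO3 (-1.66, SE 0.40), both known from liver endothelial cells, fell. Without the shallow libraries the call of SFRP1 was lost (1.38, SE 0.54, limma adjusted p = 0.058) and WNT11 was 2.77 (SE 0.34). FGF10, a growth factor of bud mesenchyme, was 67.7 ± 25.4 (n = 5) against 3.42 ± 2.59 (n = 15), a log2 difference of 3.90 (SE 0.73, adjusted p = 0.00043 by limma). As FGF10 was so low in liver, it too could enter the test through pBTSCs alone, and its call is a description. MYOCD, the smooth muscle coactivator, rose by 1.25 (SE 0.43, adjusted p = 0.028), while its partner SRF did not pass (0.22, SE 0.20, adjusted p = 0.41).

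Against the other sorts the leading listed genes were largely those above, and the contrasts share the pBTSC libraries. Against CD45-/EpCAM- cells, PRRX1, a paired-type factor of limb and skeletal mesenchyme (log2 difference 5.07, SE 0.74), OSR2 (4.68, SE 0.85), EBF1 (4.43, SE 0.46) and NKX6-1 (4.18, SE 0.70) led the transcription factors that rose. Among signals GREM1 (6.86, SE 0.89), SFRP2 (5.63, SE 0.97), FGF10 (4.12, SE 0.91) and MYOCD (3.66, SE 0.54) led the rises, and HHIP (-2.53, SE 0.45), WNT2 (-2.52, SE 0.68) and RSPO3 (-1.92, SE 0.50) fell. Against CD45+ cells, OSR2 (4.62, SE 0.64), TWIST2 (3.95, SE 0.56) and NKX6-1 (3.95, SE 0.53) were among the transcription factors that rose most. GREM1 (6.24, SE 0.67), SFRP2 (4.57, SE 0.73), FGF10 (4.25, SE 0.69) and WNT11 (2.85, SE 0.91) rose most among signals, and HHIP (-3.39, SE 0.34) and WNT2 (-2.60, SE 0.52) fell. The limma adjusted p-values of these genes in both contrasts ran from 7.7e-07 for HHIP to 0.023 for WNT11, both against CD45+ cells.

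The genes whose levels were most like those of each factor over the 17 deeper libraries were taken by Pearson's r of log2(normalized count + 1). These libraries share tissue, sort and order of number, so r is a description. FOXF1 was most like CX3CL1 (r = 0.990), KITLG (0.988) and MEF2C (0.986). FOXF2 was most like LUM (0.967), KRT20 (0.963) and DKK3 (0.962), and HAND1 like KERA (0.956), CALCR (0.948) and P2RX2 (0.945). LUM and KERA both encode small proteoglycans of the collagen matrix. FOXL1 came closest to EGR3 (0.962), GAL3ST4 (0.959) and BDKRB2 (0.959), and HAND2 to DNAJB5 (0.928), SPARC (0.926) and CREB3L1 (0.924). The nearest genes of NKX2-3 were GRIK5 (0.983), MEOX1 (0.979) and AGR2 (0.979), those of TCF21 TBC1D1 (0.962), C1QTNF6 (0.961) and ANO10 (0.957), and those of TBX2 KCNA5 (0.978), EPHX3 (0.967) and LRRC10B (0.965).

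BARX1 and ISL1 were the only pair within the list that named each other (r = 0.959, n = 17). The other genes nearest to BARX1 were BPI (0.965) and SLC6A4 (0.946), and those nearest to ISL1 were USH1G (0.938) and DNAH2 (0.934). FOXF2 and HAND1 had r = 0.919, FOXF2 and NKX2-3 0.952, and FOXF1 and TCF21 0.921. By contrast FOXF1 had 0.312 with ISL1, and TCF21 had 0.199.

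In the 13 deeper liver libraries alone, a set added after the data were seen, FOXF1 was most like CLSTN1 (r = 0.993), RGS5 (0.991) and DLL4 (0.989), genes known from pericytes (RGS5) and arterial endothelium (DLL4). HAND2 was most like PTGIR (0.957), BGN (0.953) and RGS4 (0.933), TCF21 like TBC1D1 (0.990), SGIP1 (0.978) and EFHD1 (0.977), NKX2-3 like CD151 (0.964), MAPK3 (0.947) and SPRN (0.943), and TBX2 like EPHX3 (0.982), PDGFB (0.981) and FBLIM1 (0.975). Of these names, TBC1D1 for TCF21 and EPHX3 for TBX2 stood among the first 3 in both sets of libraries.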

How the data were processed

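RNA of 20 libraries was read from 1 deposited table. Its values are a signal that the authors made by scaling read counts between libraries (normalized counts, 1 row per gene). Per the labels, RNA from a column kit went into stranded poly(A) libraries, and the submitters' processing notes name STAR, Salmon and DESeq2. Versions, genome build and annotation are not given in the sources used here. Whole reads were not recovered well enough for a count test, because 65.7% to 87.3% of the low values in a library fell on a whole number of reads (tolerance 0.05). The step between low values gave each library's approximate depth.

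The 15576 genes that reached 10 normalized counts in 2 or more libraries were fitted as log2(normalized count + 1) with limma 3.58.1 in R 4.3.3. All 6 groups shared 1 fit with a trended eBayes prior. P-values were adjusted over all genes by Benjamini-Hochberg, and a call needed an adjusted p under 0.05 and an absolute log2 difference above 1 (for the F test, the adjusted p alone). The code was tested on simulated data. Tables and figures were made in Python 3.11.15 with pandas 2.3.3, numpy 2.4.6 and matplotlib 3.10.9. The study's methods list the 5 pBTSC libraries as separate piglets. The sources used here do not give the animal of each liver library, so for liver p-values measure the spread between these libraries, which may be technical.

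The 10 members and all lists were chosen with earlier results of these data known. The rule for named genes took all members in every library, the 3 genes of highest r with each over the 17 deeper libraries, the lists of mesenchyme transcription factors, signals and cell markers, and in each contrast up to 4 called list genes with the largest rise and fall and no overlap between groups. Other list genes named were chosen after their values were seen. Alternatives were other pseudocounts, no filter, other scalings, array weights, narrower fits, a term for library numbers, the shallow libraries left out and each library left out in turn. Protein and promoter sequences were not used here. Some genes of the lists enter the counts but are not reported here by name.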

Additional observations from a re-analysis of the deposited data

Results flagged for a closer look

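In groups of 4 or 5 libraries, 30 groups of values of the 10 factors were checked for a library far from the others, and 4 had one. Chance alone picks out about 1 group in 20 where values are near normal, which does not hold at the floor. In the 4 liver CD45-/EpCAM+ libraries S19 stood apart for FOXF1 (807, against 315 to 366 in the others) and for TBX2 (2455, against 1645 to 1732), as the highest. BARX1 had 1 library above 0 in the CD45-/EpCAM+ group (S19, 0.471) and 1 in the CD45+ group (S3, 0.601), both at or under the floor of 3 reads. A group with 1 value above 0 is always picked out, so the BARX1 flags carry no weight.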

How the results depend on the processing

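Each described difference between pBTSCs and a liver sort kept its direction for 9 of 10 factors under every setting run. TBX2 against CD146+ cells turned, with values from -0.10 to 0.36. Differences of genes near the floor moved with the pseudocount, and the shallow S13 and S22 moved those of NKX2-3, FOXL1 and HAND2. Among liver sorts, the F test called 3 of 10 factors, 0 in a fit of liver libraries alone, 1 with a term for library numbers, 0 with that term without the shallow libraries (added after the data were seen), and 0 to 4 with 1 library left out. For CD45-/EpCAM- against CD45-/EpCAM+ cells the count was 1, 0 without the filter, with array weights or with these groups alone, 2 with each library at the same total, 3 without the shallow libraries, 2 with the number term as well, and 0 to 3 with 1 library left out. For CD146+ cells it was 0 with all libraries. Without S17 that group is the shallow S22 alone, so no count is given. Shares of all genes called under these settings are not given here, so the counts have no background beside them. The cause of these shifts was not tested. Counts of called transcription factors and signals stayed within 1.5 times. No paired analysis was possible because no library number is shared between groups and no source used here ties a liver library to an animal. Depth limits BARX1, HAND1, FOXF2 and ISL1 in liver, and all low genes in S13, S15 and S22. The promoter and protein part planned was not run.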
